A study of Mus musculus with 2 samples.

Results

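The MS4A genes encode small proteins that cross the cell membrane several times. The 9 mouse members described here, Ms4a1, Ms4a3, Ms4a4a, Ms4a4b, Ms4a4c, Ms4a6b, Ms4a6c, Ms4a6d and Ms4a7, were chosen by symbol and are 9 of 32285 genes counted. All 9 symbols were found in both libraries. They were read in single cells of the central nervous system during EAE, experimental autoimmune encephalomyelitis, the mouse model of multiple sclerosis in which T cells against myelin attack brain and spinal cord. The mice were of the C57BL/6 strain and had been given MOG peptide with CFA and PTX, and cells were taken on day 15. The first group is Stat4fl/flCD11cCre, in which a Cre recombinase under the CD11c promoter acts on floxed Stat4, and the second is WT. CD11c is carried by dendritic cells and by many macrophages, monocytes and activated microglia. Cells of each group were pooled and sorted as positive for MHC class II and CD11c, giving 1 3' droplet library per genotype. How many mice were pooled, and their sex and age, is not given.

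MS4A proteins are thought to act mainly as partners of other membrane receptors. MS4A1 is CD20, the B cell surface protein targeted by antibodies used in multiple sclerosis. MS4A3 marks granulocyte-monocyte progenitors, MS4A4B is a T cell member known from mouse lymphocytes, and MS4A7 is used in mouse brain to tell macrophages of other origin from microglia. Human MS4A4A and MS4A6A lie at a risk locus for Alzheimer's disease that is linked to the microglial receptor TREM2.

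In all, 120221740 UMIs (counted RNA molecules) over 12534 barcodes were deposited for Stat4fl/flCD11cCre and 122975017 over 13820 barcodes for WT. A filter of at least 500 genes, at least 1000 UMIs and less than 10% from mitochondrial genes left 12305 cells in Stat4fl/flCD11cCre (median 6878 UMIs) and 13298 in WT (median 6440.5). The 9 members held 177221 UMIs (0.148%) in Stat4fl/flCD11cCre and 202569 (0.166%) in WT. Each cell was given a type from 17 lists of 6 marker genes, and each type name below means a gate on those markers. 10010 cells in Stat4fl/flCD11cCre and 9606 in WT passed a gate. The ungated rest, 18.7% and 27.8% of the kept cells, had higher median depths of 13677 and 10596 UMIs. The libraries shared 42 kept barcodes, 0.341% and 0.316% of each. Every marker was found in 10% or more of the cells of its own type, apart from 1 marker of mature dendritic cells in WT. The gates also held T cells, NK cells, neutrophils and choroid plexus epithelium, types not defined by the sorted markers. Stat4 itself stood at 72.6 CPM in Stat4fl/flCD11cCre and 181 CPM in WT in cDC2, at 22.6 and 20.3 CPM in cDC1, at 229 and 243 CPM in T cells and at 4.34 and 8.66 CPM in microglia. Where the 3' reads lie relative to the floxed part is not known here, so these values do not check the labels.

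Levels are given as CPM, a gene's UMIs per 1000000 UMIs of the type in 1 library, with a 95% interval that covers counting error only. With 1 library per genotype there is no replicate check, no test and no p-value, and a difference between genotypes cannot be told apart from one between the 2 libraries or pools. Levels are compared within a gene, across types or genotypes, and never between genes. The 11 types that reached 50 cells in both libraries were compared, and smaller types are described.

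All 9 genes lie on chromosome 19 in a stretch of 391 kb that holds 13 genes of the family (GRCm38 build, GENCODE annotation, all protein-coding). Ms4a1 (ENSMUSG00000024673) is at chr19:11249675-11266241 and Ms4a7 (ENSMUSG00000024672) at chr19:11321039-11336146, both on the minus strand. The next block is on the plus strand. It holds Ms4a4a (ENSMUSG00000101389) at chr19:11375523-11392790, Ms4a4c (ENSMUSG00000024675) at chr19:11404770-11427246 and Ms4a4b (ENSMUSG00000056290) at chr19:11443553-11467055. It goes on with Ms4a6c (ENSMUSG00000079419) at chr19:11469366-11482192 and Ms4a6b (ENSMUSG00000024677) at chr19:11516512-11531256. Ms4a6d (ENSMUSG00000024679) at chr19:11586604-11604849 and Ms4a3 (ENSMUSG00000024681) at chr19:11629496-11640851 are again on the minus strand. Near the 3' end the paralogues share few exact stretches of 91 bases, the read length. Near matches, other transcript ends and reads from introns were not checked. Of 410 windows of that length in the last 500 bases of each longest transcript, 0 occurred in another MS4A transcript for 8 of the genes. For Ms4a6c, 6 windows (1.46%) also occurred in Ms4a6b.

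The promoters of 4 neighbours of the plus-strand block are shown, because these genes stand side by side and yet differ in the cell types that hold their RNA. The 250 bases before the RefSeq start are printed in lower case (RefSeq, GRCm38.p6), with matches to AGGAAGT on either strand in capitals. These starts can differ from the GENCODE gene ends given above.
Ms4a4c promoter, chr19:11407411-11407660, plus strand: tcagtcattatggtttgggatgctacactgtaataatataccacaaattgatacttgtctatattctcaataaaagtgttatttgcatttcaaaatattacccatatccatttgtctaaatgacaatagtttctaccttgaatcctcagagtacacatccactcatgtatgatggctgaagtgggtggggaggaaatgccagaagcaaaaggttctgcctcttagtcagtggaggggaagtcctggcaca
Ms4a4b promoter, chr19:11443308-11443557, plus strand: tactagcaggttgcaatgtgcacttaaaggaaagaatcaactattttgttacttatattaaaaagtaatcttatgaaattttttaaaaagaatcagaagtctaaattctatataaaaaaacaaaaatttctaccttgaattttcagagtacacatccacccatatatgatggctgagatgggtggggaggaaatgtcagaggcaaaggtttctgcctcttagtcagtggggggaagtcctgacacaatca
Ms4a6c promoter, chr19:11469118-11469367, plus strand: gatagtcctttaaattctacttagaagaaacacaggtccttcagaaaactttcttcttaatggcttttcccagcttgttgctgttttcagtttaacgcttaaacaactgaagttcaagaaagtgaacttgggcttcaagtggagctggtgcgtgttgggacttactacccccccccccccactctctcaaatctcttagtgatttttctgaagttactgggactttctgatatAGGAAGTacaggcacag
Ms4a6b promoter, chr19:11518309-11518558, plus strand: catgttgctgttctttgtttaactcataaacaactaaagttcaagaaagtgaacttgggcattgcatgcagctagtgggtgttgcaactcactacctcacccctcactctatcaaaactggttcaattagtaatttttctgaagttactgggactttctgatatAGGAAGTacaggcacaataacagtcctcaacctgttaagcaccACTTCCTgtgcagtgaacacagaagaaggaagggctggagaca
The Ms4a6c and Ms4a6b promoters share a run of 48 identical bases, which holds a match, and those of Ms4a4c and Ms4a4b share a run of 20. No other pair of the 4 shares more than 9. AGGAAGT is a core of the sites bound by PU.1, a transcription factor of myeloid cells, and 9.35% of all 32851 RefSeq promoters of this length hold it on either strand. Of the 8 promoter entries matched to 7 of the 9 members, 2 hold it: Ms4a6c, beginning 17 bases before the start, and Ms4a6b, beginning 86 and 43 bases before it. TTCNNNGAA, the core bound by STAT factors, is in 8.3% of all promoters and in 0 of the 8. GAAANNGAAA, the interferon-stimulated response element, is in 3.44% of all and in 0 of the 8. The searched windows include the 50 bases after the start, and a match is a description of letters, not of binding.

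The members divided into a B cell gene, a progenitor gene, a T and NK cell gene, 4 genes centred on monocytes, 1 shared by monocytes and T cells, and 1 that was highest in macrophages. Ms4a1 (CD20) was found mainly in B cells, a small type of 45 cells in Stat4fl/flCD11cCre and 77 in WT. There it stood at 127 CPM (96.8 to 163) in Stat4fl/flCD11cCre, from 60 UMIs, and at 566 (480 to 662) in WT, from 156 UMIs. A UMI of Ms4a1 was found in 35% of the B cells in Stat4fl/flCD11cCre (upper limit 51.7%) and in 67.9% in WT, after thinning each cell to 2500 UMIs. The log2 ratio, Stat4fl/flCD11cCre over WT, was -2.16 (-2.61 to -1.72), over fewer than 50 cells in Stat4fl/flCD11cCre. The summed level of the 6 B cell gate markers was 4930 CPM in Stat4fl/flCD11cCre and 5360 CPM in WT. The B cells were deeper in Stat4fl/flCD11cCre, at a median of 5132 UMIs, against 2896 in WT, and whether both gates hold the same kinds of B cell was not tested. In the 11 compared types Ms4a1 reached at most 0.815 CPM in Stat4fl/flCD11cCre and 2.68 CPM in WT, both in microglia.

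Ms4a3, a gene of granulocyte-monocyte progenitors, was highest in the few cells gated as such. It stood at 1340 CPM (1260 to 1430) in 20 cells in Stat4fl/flCD11cCre and at 1680 CPM (1530 to 1840) in 10 cells in WT. The basophil or mast cell gate held 140 CPM in 4 cells in Stat4fl/flCD11cCre, from 3 UMIs. In WT it held 850 CPM in 5 cells, from 44 UMIs, of which 25 came from 1 cell. In neutrophils with granule genes Ms4a3 stood at 68.4 CPM in Stat4fl/flCD11cCre and 38.6 CPM in WT, and in the neutrophil-lineage intermediates at 56.1 and 40.3 CPM. In mature neutrophils it was at 0.524 CPM in Stat4fl/flCD11cCre and 2.04 CPM in WT, which are 1 and 2 UMIs. The RNA thus lay at the early end of the gated neutrophil stages in both libraries. Elsewhere single cells held much of it: in WT T cells 29 of 30 UMIs came from 1 cell, against 0 UMIs in Stat4fl/flCD11cCre T cells, and in Stat4fl/flCD11cCre microglia 21 of 27 UMIs came from 1 cell.

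Ms4a4b, the T cell member, was high only in lymphocytes among the types compared. It stood at 1070 CPM (1020 to 1120) in NK cells in Stat4fl/flCD11cCre and 1040 CPM (985 to 1090) in WT. In T cells it stood at 872 CPM (852 to 892) in Stat4fl/flCD11cCre and 1040 CPM (1020 to 1050) in WT. NK and T cells overlapped in the range of their 2 libraries, though in Stat4fl/flCD11cCre the interval of NK cells lay above that of T cells. The next type, classical monocytes, held 31 CPM in Stat4fl/flCD11cCre and 32.6 CPM in WT, a mean 30-fold under T cells. Within the T cells the order was the same in both libraries for the CD8, conventional CD4 and Foxp3 groups. CD8 T cells held 1770 CPM (1700 to 1830) in Stat4fl/flCD11cCre and 1800 CPM (1750 to 1840) in WT. CD4 T cells without a Foxp3 UMI held 720 CPM in Stat4fl/flCD11cCre and 834 CPM in WT. T cells with Foxp3, the factor of regulatory T cells, held 444 and 485 CPM, and gamma-delta T cells 522 and 478 CPM, with intervals that overlapped between these last groups. After thinning, a UMI of Ms4a4b was found in 93.3% of CD8 T cells in Stat4fl/flCD11cCre and in 95.9% in WT, and in 60.9% and 57.7% of Foxp3 T cells.

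Ms4a6b was the member shared by lymphoid and myeloid cells. Classical monocytes held 665 CPM (652 to 679) in Stat4fl/flCD11cCre and 630 CPM (616 to 644) in WT, and T cells held 489 CPM (474 to 505) and 539 CPM (527 to 551). CD8 T cells again led the T cells, at 829 CPM in Stat4fl/flCD11cCre and 842 CPM in WT, while the Foxp3 group held 430 and 404 CPM. NK cells matched T cells in Ms4a4b in WT and stood above them in Stat4fl/flCD11cCre. Of Ms4a6b, NK cells held only 127 CPM in Stat4fl/flCD11cCre and 120 CPM in WT. Nonclassical monocytes held 382 and 429 CPM, and microglia 140 and 156 CPM. The gene was found in microglia at a similar share of thinned cells in both libraries, 27.1% in Stat4fl/flCD11cCre and 28.3% in WT.

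Ms4a4c, Ms4a6c and Ms4a6d, myeloid members with close human relatives in MS4A4 and MS4A6 genes, were each highest in classical monocytes, the Ly6c2-positive cells that enter the inflamed tissue from blood. Ms4a4c stood there at 832 CPM (817 to 847) in Stat4fl/flCD11cCre and 819 CPM (803 to 835) in WT. Ms4a6c stood at 1440 CPM (1420 to 1460) and 1310 CPM (1290 to 1330), with a UMI in 93.3% and 91.2% of thinned cells. Ms4a6d stood at 667 CPM (654 to 681) in Stat4fl/flCD11cCre and 701 CPM (687 to 716) in WT. The 3 genes differed in how far they spread from monocytes. In inflammatory macrophages Ms4a4c was at 75 CPM in Stat4fl/flCD11cCre and 103 CPM in WT, Ms4a6c at 636 and 671 CPM, and Ms4a6d at 480 and 544 CPM. In nonclassical monocytes, the patrolling kind, Ms4a6c was at 1110 CPM in Stat4fl/flCD11cCre and 1080 CPM in WT, while Ms4a6d was at 200 and 267 CPM.

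Dendritic cells shared part of this pattern. The conventional cDC2 (57 cells in Stat4fl/flCD11cCre, 28 in WT) held 663 and 681 CPM of Ms4a4c, 731 and 853 CPM of Ms4a6c, and 411 and 391 CPM of Ms4a6d. The conventional cDC1 (40 and 54 cells) held less of each, with 121 CPM of Ms4a4c in Stat4fl/flCD11cCre and 109 CPM in WT, and 245 and 264 CPM of Ms4a6c. In cDC1, 19 of the 24 UMIs of Ms4a6d in Stat4fl/flCD11cCre came from 1 cell. Plasmacytoid dendritic cells held 64.1 CPM of Ms4a4c in Stat4fl/flCD11cCre and 63.7 CPM in WT, and 115 and 112 CPM of Ms4a6c. Ms4a7 had 0 UMIs in cDC2 of both libraries, which allows a level of up to 5.7 CPM in Stat4fl/flCD11cCre and 15.5 CPM in WT.

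Ms4a4a, a surface protein of macrophages known to partner the fungal receptor dectin-1, was low and lay mainly in the monocyte and macrophage gates. It stood at 79.3 CPM (61.8 to 100) in nonclassical monocytes in Stat4fl/flCD11cCre and 55.3 CPM (37.3 to 78.9) in WT. Classical monocytes held 46.8 CPM in Stat4fl/flCD11cCre and 53.5 CPM in WT, and microglia 2.84 and 4.35 CPM. The first 2 of these types did not differ beyond their counting error in WT, and after thinning classical monocytes came first.

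Ms4a7 was the only member highest in macrophages among the compared types. Inflammatory macrophages, gated on Arg1, Nos2 and their companions, held 312 CPM (290 to 336) in Stat4fl/flCD11cCre and 269 CPM (246 to 293) in WT, with a UMI in 45.2% and 36.7% of thinned cells. Cells between monocyte and macrophage held 175 and 150 CPM, classical monocytes 39 and 35.3 CPM, and microglia 23.7 and 21.8 CPM. Nonclassical monocytes held 4.53 CPM in Stat4fl/flCD11cCre and 7.37 CPM in WT, 4 UMIs each. The 11 border-associated macrophages, resident cells of the meninges and vessels found only in the Stat4fl/flCD11cCre library, held the most, at 727 CPM (552 to 939), with a UMI in 11 of 11 cells. Ms4a6b, Ms4a6c and Ms4a6d stood in the same 11 cells at 589, 940 and 576 CPM.

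**Figure D1:**
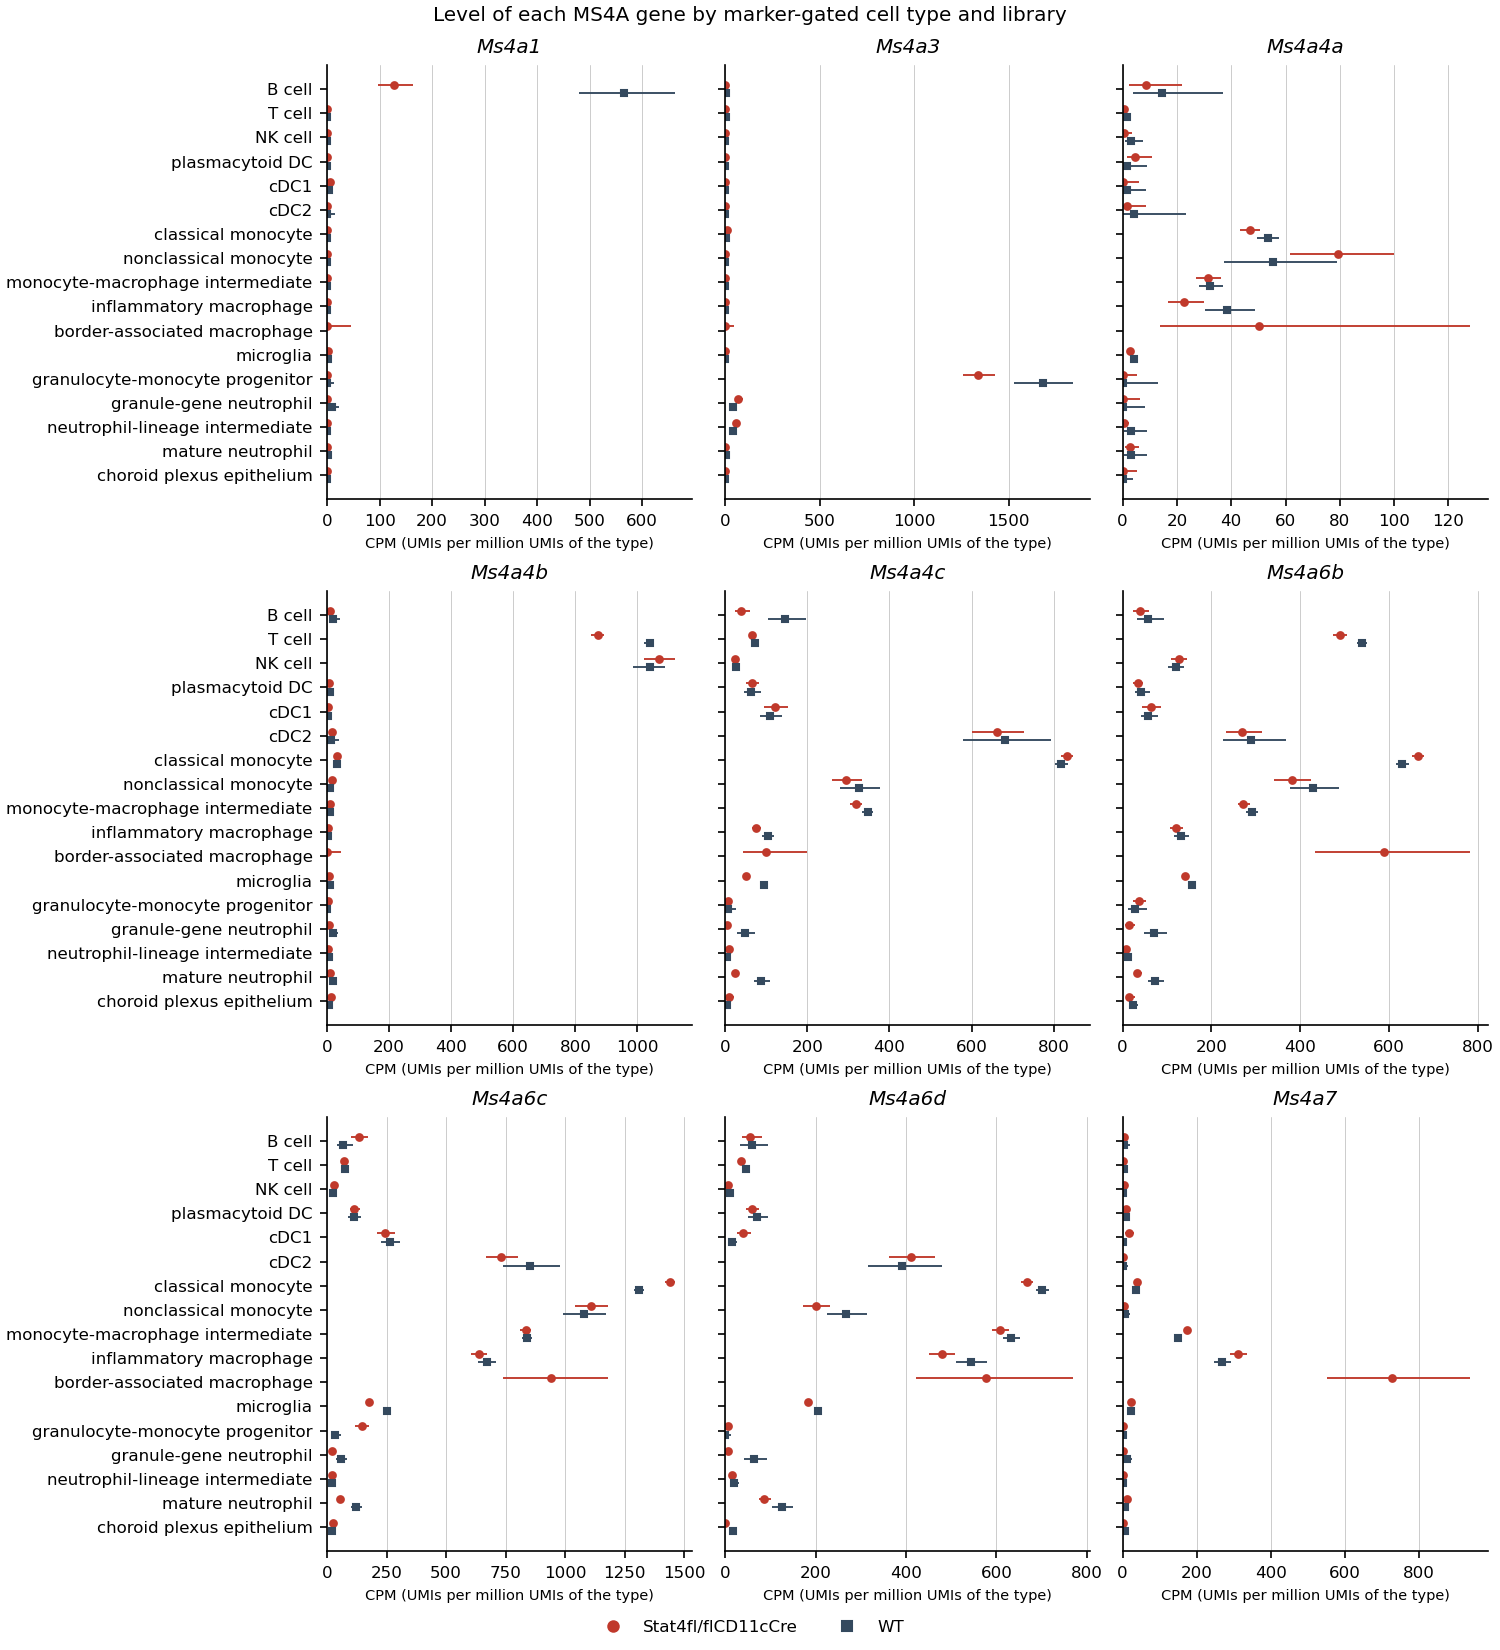
CPM of each MS4A gene (one panel per gene, each with its own axis from 0) in marker-gated cell types, for Stat4fl/flCD11cCre (circles, upper) and WT (squares, lower), with exact Poisson 95% intervals for counting error and types with fewer than 10 cells in a library left out. Ms4a4b is high in T and NK cells alone, Ms4a6c is highest in classical monocytes at 1440 and 1310 CPM, and Ms4a7 reaches 312 and 269 CPM in inflammatory macrophages.

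The members overlapped within single cells. After thinning, a classical monocyte held a UMI of 3.44 members on average in Stat4fl/flCD11cCre and 3.4 in WT, and 81.5% and 79.8% of these cells held 3 or more. A nonclassical monocyte held 2.28 and 2.42 members, a T cell 1.64 and 1.81, an NK cell 1.23 and 1.28, and a microglial cell 0.862 and 1.12. Choroid plexus epithelium, which has no blood cell origin, served as a measure of stray RNA. It held a UMI of any member in few cells (none in 96.3% in Stat4fl/flCD11cCre and in 90.6% in WT). Its levels were 9.75 CPM of Ms4a4c in Stat4fl/flCD11cCre and 5.06 CPM in WT, 26.5 and 19.2 CPM of Ms4a6c, 12.5 and 5.06 CPM of Ms4a4b, and 0 and 16.2 CPM of Ms4a6d. In Stat4fl/flCD11cCre these levels rest on 1 cell per gene, which held 18 of 19 UMIs of Ms4a6c, 7 of 7 of Ms4a4c and 8 of 9 of Ms4a4b. Without the cell that held most, Ms4a6c was at 1.41 CPM in Stat4fl/flCD11cCre and 14.4 CPM in WT, Ms4a4c at 0 and 3.06 CPM, Ms4a4b at 1.41 and 1.03 CPM, and Ms4a6d at 0 and 7.22 CPM.

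Low values in other types are set beside those of choroid plexus. NK cells held 30.4 CPM of Ms4a6c (22.5 to 40.2) in Stat4fl/flCD11cCre and 26.7 CPM (19.2 to 36.2) in WT, with intervals that overlap those of choroid plexus over all its cells. Without the top cell of each type NK cells held 26.9 and 22.3 CPM, against 1.41 and 14.4 CPM in choroid plexus. The top choroid plexus cell held 18 of 19 UMIs in Stat4fl/flCD11cCre and 5 of 19 in WT. Microglia held 4.76 CPM of Ms4a4b in Stat4fl/flCD11cCre and 9.96 CPM in WT, against 12.5 and 5.06 CPM in choroid plexus over all cells. Without the top cell microglia held 4.44 and 9.38 CPM, against 1.41 and 1.03 CPM in choroid plexus. The top choroid plexus cell held 8 of 9 UMIs in Stat4fl/flCD11cCre and 4 of 5 in WT. So few UMIs are left that this step cannot place microglia above choroid plexus. T cells held 72 CPM of Ms4a6c in Stat4fl/flCD11cCre and 74.8 CPM in WT, and 33.7 and 46.7 CPM of Ms4a6d, above choroid plexus in both libraries. Beside these, T cells held the classical monocyte gate markers, all 6 found, at a sum of 1090 CPM in Stat4fl/flCD11cCre and 1460 CPM in WT. They held the macrophage markers at a sum of 60.6 CPM in Stat4fl/flCD11cCre and 46.1 CPM in WT, and the microglia markers at 40.5 and 46.7 CPM. Which cells these marker RNAs came from, and their part in the T cell levels, was not tested.

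As a description over the 11 types, each as the mean of its 2 libraries on log2(CPM + 10), the nearest pattern to Ms4a6c among members was Ms4a6d (Pearson r 0.952), then Ms4a4c (0.935) and Ms4a4a (0.933). The direct neighbours Ms4a4c and Ms4a4b had r -0.0903, and Ms4a4b and Ms4a6c had -0.322. These points share libraries and scaling. Among other genes reaching 50 CPM, the closest to Ms4a3 was Fcnb (0.991), a ficolin of granulocytes, followed by Cpa6 and Cebpe, a granulocyte transcription factor. The closest to Ms4a4a was Clec4a1 (0.984), a myeloid lectin, followed by Stom and Dpep2. The closest to Ms4a4b was Gimap7 (0.983), followed by the T cell factor Tcf7 and Gimap3. Mcub (0.952), a mitochondrial calcium channel subunit, was closest to Ms4a4c, then Pitpna and Ifi211. S100a4 (0.955), a calcium-binding protein, was closest to Ms4a6b, then Ifi213 and Uba1. Klf4 (0.972), a monocyte transcription factor, was closest to Ms4a6c, then Mcub and Ifi205. Tmem106a (0.975) was closest to Ms4a6d, then the costimulatory receptor Cd40 and Ifi211. Mmp12 (0.987), a macrophage elastase, was closest to Ms4a7, then Anpep and the coagulation factor gene F7.

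Within the monocyte and macrophage gates the members differed in level step by step with the marker make-up of the cells. Cells were ordered by the number of macrophage markers found minus the number of classical monocyte markers found, and the steps with many cells run upward by 1 marker. At the monocyte end, 5 more monocyte than macrophage markers, Ms4a4c was at 822 CPM (796 to 849) in Stat4fl/flCD11cCre and 876 CPM (839 to 915) in WT. At 3 more macrophage than monocyte markers it was at 62.6 CPM (45.6 to 83.7) in Stat4fl/flCD11cCre and 91.5 CPM (66.2 to 123) in WT. Ms4a6b ran alongside, at 684 CPM in Stat4fl/flCD11cCre and 711 CPM in WT at the monocyte end, and at 110 and 87.2 CPM at the macrophage end. Ms4a7 ran the other way, at 12.3 CPM in Stat4fl/flCD11cCre and 15.6 CPM in WT at the monocyte end. It was at 148 and 169 CPM where both marker counts were equal. At the macrophage end it was at 378 CPM (334 to 426) in the 55 cells in Stat4fl/flCD11cCre and 213 CPM (173 to 259) in the 49 cells in WT, below the 292 CPM of the step before in WT.

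Ms4a6c and Ms4a6d held their level further. Ms4a6c was at 1540 CPM in Stat4fl/flCD11cCre and 1560 CPM in WT at the monocyte end, and at 602 and 559 CPM at the macrophage end. Ms4a6d was at 549 CPM in Stat4fl/flCD11cCre and 639 CPM in WT at the monocyte end, at 753 and 720 CPM 2 steps on, and at 475 and 508 CPM at the macrophage end. The cells of the macrophage end were also deeper, at a median of 13532 UMIs in Stat4fl/flCD11cCre and 9674 in WT, against 10071.5 and 7705.5 at the monocyte end. Depth was not equalised over these steps.

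**Figure D2:**
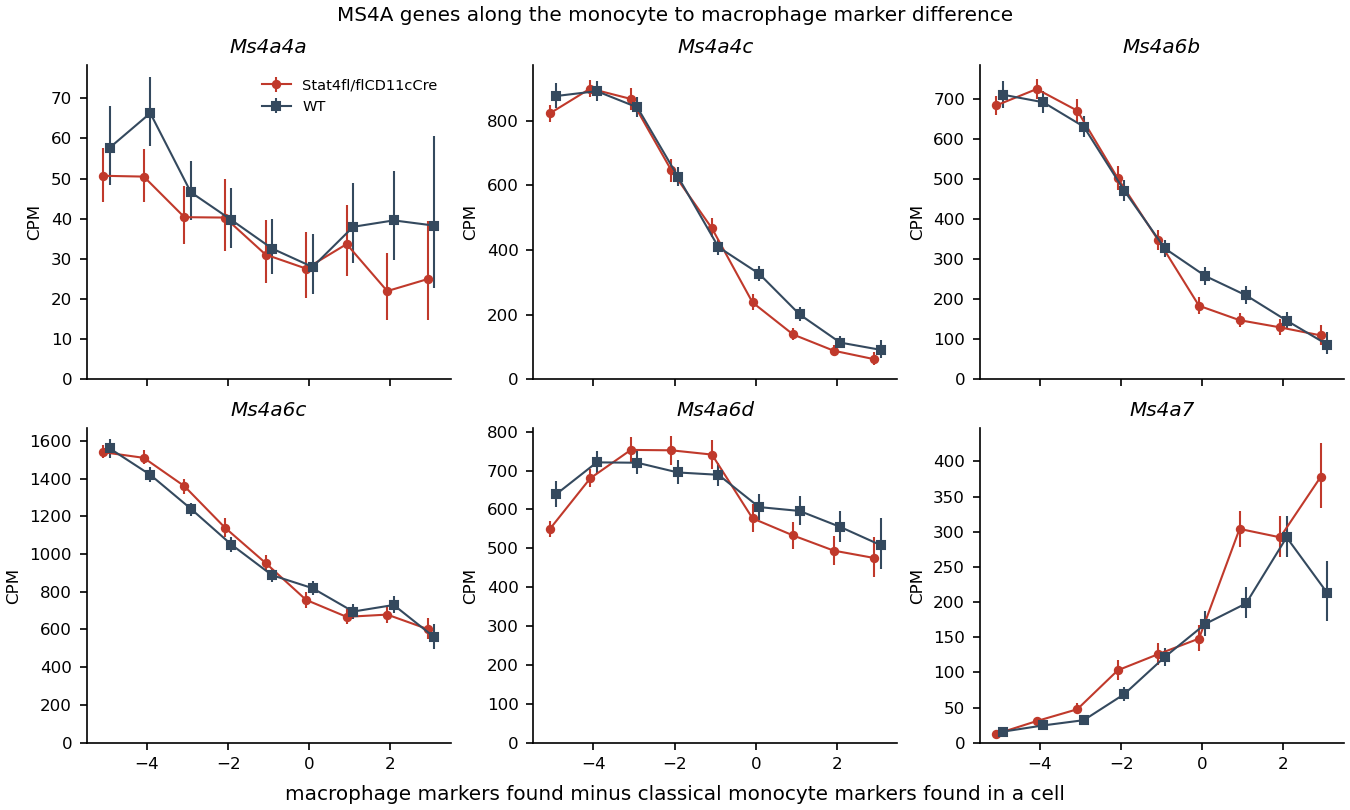
CPM with exact Poisson 95% intervals (vertical axes from 0, one panel per gene) against macrophage markers found minus classical monocyte markers found in a cell, for Stat4fl/flCD11cCre (circles, drawn left) and WT (squares). Ms4a4c and Ms4a6b are lower toward the macrophage side, Ms4a6d stays between 475 and 753 CPM, and Ms4a7 is higher, with 378 CPM in Stat4fl/flCD11cCre and 213 CPM in WT at the last step.

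The next comparison sets Stat4fl/flCD11cCre against WT within each type, for members with 50 or more UMIs over both libraries. Of 55 such pairs of member and type, 46 were within 1.5-fold, 8 were lower by 1.5-fold or more in Stat4fl/flCD11cCre and 1 was higher. The median size of the log2 ratio was 0.17. Of the 8 lower, 4 lay in microglia and 3 in mature neutrophils, where 10.5% and 13.1% of all genes were lower. Over the types with a member measured, the share of all genes lower ran from 2.84% in NK cells to 13.6% in neutrophil-lineage intermediates. The share higher ran from 1.93% in the monocyte-macrophage intermediates to 6.95% in microglia. In the monocyte line the levels were close. Of the 8 members measured in classical monocytes, 0 were lower by 1.5-fold or more, beside 5.59% of all 10742 genes, and 1 was higher, beside 3.84%. That one was Ms4a3, at 7.85 CPM (6.46 to 9.45) in Stat4fl/flCD11cCre and 3.49 CPM (2.53 to 4.7) in WT, a log2 ratio of 1.17 (0.65 to 1.71). It came from 33 and 16 cells with a UMI among 1290 and 1543, and without the cell that held most it was 6.33 and 2.11 CPM. The summed granulocyte-monocyte progenitor markers in classical monocytes were 371 CPM in Stat4fl/flCD11cCre and 170 CPM in WT, and their part in the Ms4a3 value was not tested. In the monocyte-macrophage intermediates 0 of 7 members were past the fold in either direction, beside 3.44% of genes lower and 1.93% higher.

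In inflammatory macrophages 1 of 6 members was lower by 1.5-fold or more, beside 3.8% of genes, and 0 were higher, beside 3.27%. It was Ms4a4a, at 22.6 CPM (16.9 to 29.8) in Stat4fl/flCD11cCre and 38.6 CPM (30.2 to 48.6) in WT, from 51 and 72 UMIs, a log2 ratio of -0.77 (-1.32 to -0.23). Ms4a7 was within 1.5-fold, at a log2 ratio of 0.22 (0.05 to 0.39) there and of 0.23 (0.10 to 0.35) in the intermediates. In NK cells 0 of 4 members were past the fold, beside 2.84% of genes lower and 4.21% higher. In nonclassical monocytes 0 of 5 were, beside 6.7% lower and 6.75% higher, and in plasmacytoid dendritic cells 0 of 4, beside 4.57% and 6.43%. In the neutrophil-lineage intermediates 0 of 3 were past the fold, beside 13.6% of genes lower and 3.16% higher.

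T cells showed 0 of 6 members past the fold, beside 3.41% of genes lower and 2.34% higher. Ms4a4b stood at a log2 ratio of -0.25 (-0.29 to -0.21) and Ms4a6b at -0.14 (-0.19 to -0.08), both with intervals below 0 though within 1.5-fold. The T cell share by subset also differed: CD8 T cells, the richest in both genes, were 198 of 1063 T cells in Stat4fl/flCD11cCre and 550 of 2288 in WT. Within CD8 T cells the log2 ratio was -0.03 (-0.09 to 0.04) for Ms4a4b and -0.02 (-0.12 to 0.07) for Ms4a6b. Ms4a4b was at -0.21 (-0.28 to -0.15) in CD4 T cells without Foxp3, -0.13 (-0.30 to 0.05) in Foxp3 T cells, 0.13 (-0.21 to 0.46) in gamma-delta T cells and -0.34 (-0.44 to -0.24) in unresolved T cells. Ms4a6b was at -0.27 (-0.40 to -0.14) in unresolved T cells, and its interval held 0 in the other subsets. In both CD8 T cells and CD4 T cells without Foxp3, 0 of 5 members were past the fold, beside 3.9% and 4.76% of genes lower and 5.04% and 2.13% higher. Gamma-delta T cells had 0 of 2 past it, beside 7.85% lower and 6.96% higher. In Foxp3 T cells 3 of 5 members were lower by 1.5-fold or more, beside 6.12% of genes, and 0 were higher, beside 3.5%. They were Ms4a4c at 36.4 CPM in Stat4fl/flCD11cCre and 82.7 CPM in WT (33 and 123 UMIs), Ms4a6c at 68.3 and 122 CPM (62 and 181 UMIs), and Ms4a6d at 26.5 and 47.7 CPM (24 and 71 UMIs). Ms4a6c went the other way in CD8 T cells (log2 0.47, 0.11 to 0.83) and unresolved T cells (0.41, 0.10 to 0.71). It was at -0.22 (-0.44 to -0.01) in CD4 T cells without Foxp3 and -1.41 (-3.99 to 0.72) in gamma-delta T cells. The classical monocyte markers in Foxp3 T cells summed to 658 CPM in Stat4fl/flCD11cCre and 1020 CPM in WT, and the macrophage markers to 164 and 60.5 CPM. Their part in these values was not tested. In T cells left unresolved, 1 of 5 members was lower, Ms4a6d at 23.3 and 53.4 CPM, beside 4.29% of genes lower and 5.43% higher.

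**Figure D3:**
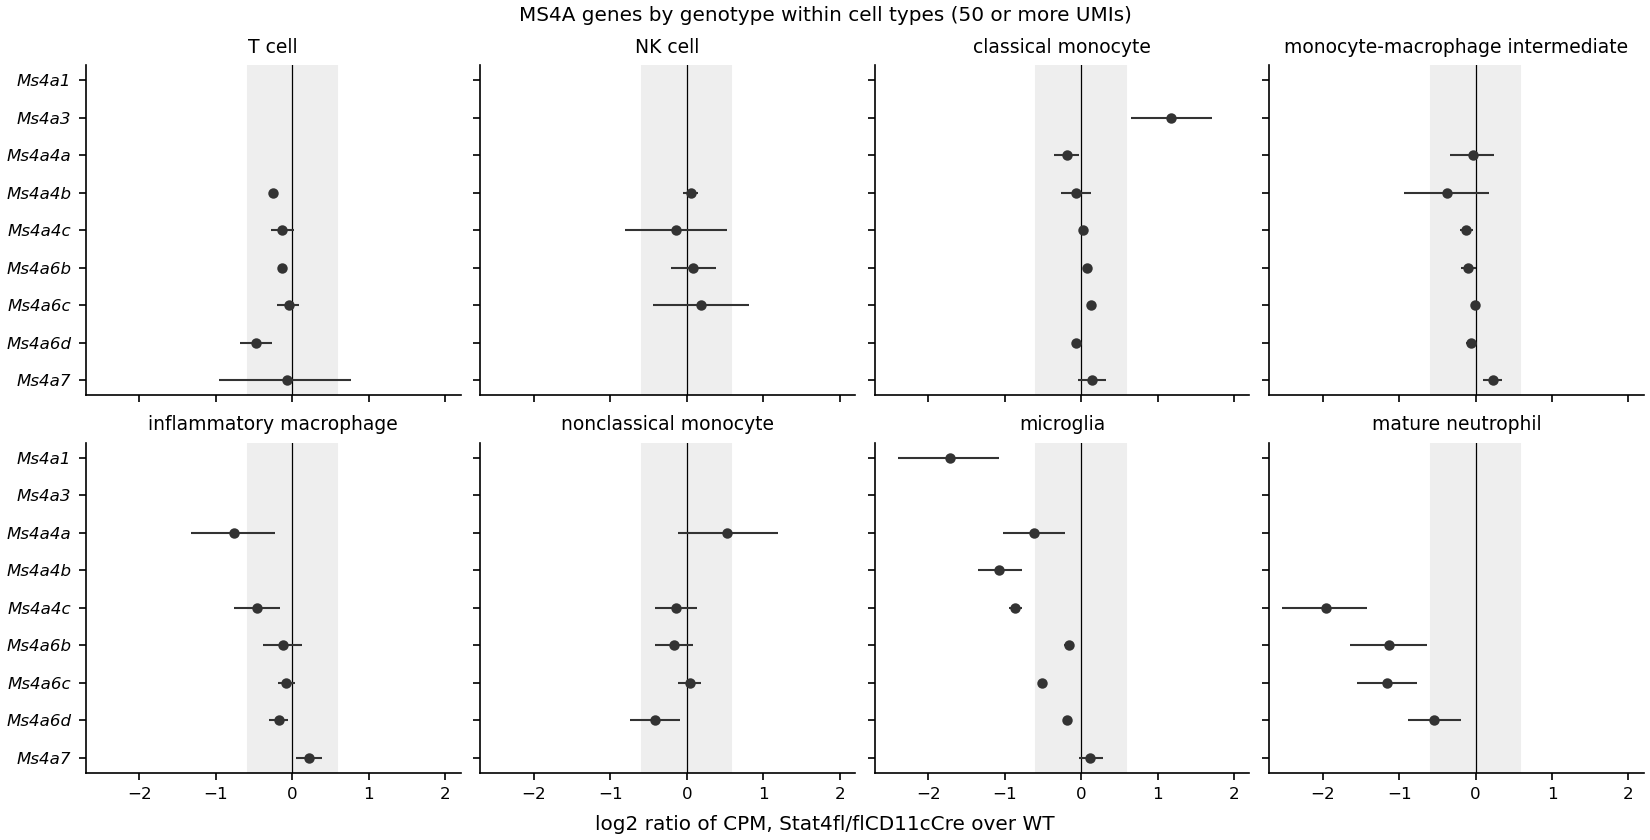
Log2 ratio of CPM, Stat4fl/flCD11cCre over WT, with exact conditional binomial 95% intervals, for each MS4A gene with 50 or more UMIs in 8 cell types (one panel each; the grey band is within 1.5-fold). Points in T cells, NK cells and the monocyte and macrophage types lie mostly in the band, apart from Ms4a3 in classical monocytes at 1.17 and Ms4a4a in inflammatory macrophages at -0.77, while several points in microglia and mature neutrophils lie to its left.

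In microglia, the resident macrophages of the brain, 4 of 8 members measured were lower by 1.5-fold or more in Stat4fl/flCD11cCre, beside 10.5% of all 13462 genes, and 0 were higher, beside 6.95%. The median log2 ratio of the 8 was -0.56, and that of all genes 0.08. Ms4a4c was the best counted of the 4, at 51.1 CPM (48.8 to 53.4) in 5301 cells in Stat4fl/flCD11cCre and 93.1 CPM (89.3 to 97) in 3511 cells in WT, a log2 ratio of -0.87 (-0.95 to -0.78). The others, Ms4a1, Ms4a4a and Ms4a4b, were under 10 CPM in both libraries, and their ratios varied with the cells chosen, as given below. Ms4a6c was lower within 1.5-fold, at 176 CPM (172 to 181) in Stat4fl/flCD11cCre and 251 CPM (245 to 258) in WT (log2 -0.51, -0.56 to -0.46). Ms4a6b and Ms4a6d differed least among the well-counted members, at log2 ratios of -0.16 and -0.18, and Ms4a7 was at 0.12 (-0.03 to 0.28).

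Markers of other cells moved with this result. In the microglia gate the classical monocyte markers summed to 396 CPM in Stat4fl/flCD11cCre and 691 CPM in WT, with all 6 found, the macrophage markers to 382 and 389 CPM, and the T cell markers to 12 and 23.2 CPM. The microglia markers themselves summed to 7030 and 4610 CPM. The result was therefore recomputed in microglia in which none of the 18 markers of the monocyte and macrophage lists was found, 3517 cells (66.3%) in Stat4fl/flCD11cCre and 1753 (49.9%) in WT, a choice made after seeing the data. In these cells Ms4a4c was at 13.8 CPM in Stat4fl/flCD11cCre and at 37.8 CPM in WT, a log2 ratio of -1.45 (-1.69 to -1.22). Ms4a6c was at 79.8 and 135 CPM (log2 -0.76, -0.87 to -0.65), Ms4a6d at 139 and 158 CPM, and Ms4a6b at 120 and 129 CPM. The lymphocyte gene Ms4a4b, at 1.56 and 4.29 CPM there, had a log2 ratio of -1.46 (-2.21 to -0.73), and the part of stray RNA in the Ms4a4c value was not tested. Of the 5 members measured in these cells 3, Ms4a4b, Ms4a4c and Ms4a6c, were lower by 1.5-fold or more, beside 8.33% of genes, and 0 were higher, beside 6.22%. Ms4a1 was not among the 5, at 0.703 and 0.954 CPM from 14 and 8 UMIs, a log2 ratio of -0.44 (-1.79 to 1.02). Ms4a4a had 4 and 3 UMIs there, too few for a ratio.

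MHC class II RNA of microglia, which interferon-gamma is known to raise, differed between the libraries. Microglia thinned to 2500 UMIs were binned by summed UMIs of H2-Aa, H2-Ab1 and H2-Eb1. Of these cells 70% in Stat4fl/flCD11cCre and 15.3% in WT held 0, 13.2% and 14.4% held 1 to 2, and 16.8% and 70.2% held 3 or more. Both pools had been sorted on MHC class II and CD11c, so these are shares of the sorted cells, not of microglia in the tissue.

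Ms4a4c followed the bins in both libraries. In cells with 0 MHC class II UMIs it was at 8.85 CPM (7.01 to 11) in Stat4fl/flCD11cCre and 33.2 CPM (23.8 to 45) in WT. With 1 to 2 it was at 31.5 and 47.3 CPM. With 3 or more it was at 118 CPM (104 to 134) in Stat4fl/flCD11cCre and 83.2 CPM (75.9 to 91.1) in WT. The ratio between genotypes thus changed sign along the bins, with log2 values of -1.91 (-2.47 to -1.33), -0.59 (-1.16 to -0.02) and 0.51 (0.28 to 0.73). With the 10% of cells of highest doublet score left out, these were -1.67 (-2.29 to -1.02), -0.69 (-1.32 to -0.06) and 0.30 (0.02 to 0.58). The highest bin was then at 85.8 CPM in Stat4fl/flCD11cCre and 69.5 CPM in WT, so its difference was smaller. Markers of other cells moved along the bins too. With 0 MHC class II UMIs the classical monocyte markers summed to 67.2 CPM in Stat4fl/flCD11cCre and 201 CPM in WT, the macrophage markers to 30.9 and 69.6 CPM, the T cell markers to 13.1 and 23.5 CPM and the microglia markers to 8660 and 6630 CPM. In the highest bin the monocyte and macrophage sums were higher in Stat4fl/flCD11cCre, at the values given with Ms4a7, and the part of these markers in the sign change was not tested. Ms4a6c did the same as Ms4a4c, at 71.8 and 134 CPM, 111 and 145 CPM, and 305 and 226 CPM for Stat4fl/flCD11cCre and WT in each bin, with log2 values of -0.90, -0.38 and 0.43. The last of these was 0.27 (0.11 to 0.44) with the cells of highest doublet score left out. From the lowest to the highest bin within a library, Ms4a4c differed by a log2 of 3.74 in Stat4fl/flCD11cCre and 1.33 in WT, and Ms4a6c by 2.09 and 0.75. Ms4a6b differed little, by 0.34 and -0.11, and Ms4a6d by 0.90 and -0.02. The ratio between genotypes changed sign for Ms4a6d too, from -0.45 (-0.66 to -0.24) in the lowest bin to 0.47 (0.31 to 0.62) in the highest. The latter was 0.32 (0.14 to 0.49) with the cells of highest doublet score left out. For Ms4a6b it was -0.29 (-0.51 to -0.07) in the lowest bin and 0.16 (-0.02 to 0.34) in the highest. Ms4a4a was at 1.40 (0.38 to 2.43) in the highest bin, from 18 thinned UMIs in each library. Its ratio was 1.42 (-0.28 to 3.08) with the cells of highest doublet score left out. In that bin Ms4a1 was at -0.08 (-1.91 to 1.47) and Ms4a4b at -0.71 (-1.75 to 0.21).

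Ms4a7 was nearly all in the highest bin, at 51.9 CPM (42.7 to 62.5) in Stat4fl/flCD11cCre and 15.7 CPM (12.6 to 19.4) in WT, a log2 ratio of 1.72 (1.31 to 2.14). It was 1.77 after the 10% of cells with the highest doublet score were left out. In the highest bin the macrophage markers summed to 655 CPM in Stat4fl/flCD11cCre and 266 CPM in WT, the monocyte markers to 726 and 497 CPM, the border-associated macrophage markers to 71.6 and 17.5 CPM and the microglia markers to 4900 and 4800 CPM. Few microglia held any Ms4a7, 173 of 5301 in Stat4fl/flCD11cCre and 161 of 3511 in WT, and they were deep, at medians of 18905 and 14735 UMIs. The macrophage markers summed to 2190 CPM in those cells in Stat4fl/flCD11cCre and 1450 CPM in WT, against 191 and 259 CPM in microglia without an Ms4a7 UMI. In microglia with none of the 18 monocyte and macrophage markers Ms4a7 was at 0.803 CPM in Stat4fl/flCD11cCre and 2.39 CPM in WT, near 0 in both. Its log2 ratio there was -1.57 (-2.62 to -0.55), from 16 and 20 UMIs. In the lowest MHC class II bin it was -1.59 (-3.20 to 0.27), from 12 and 5 thinned UMIs. The sign of the Ms4a7 ratio thus depended on the cells chosen.

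**Figure D4:**
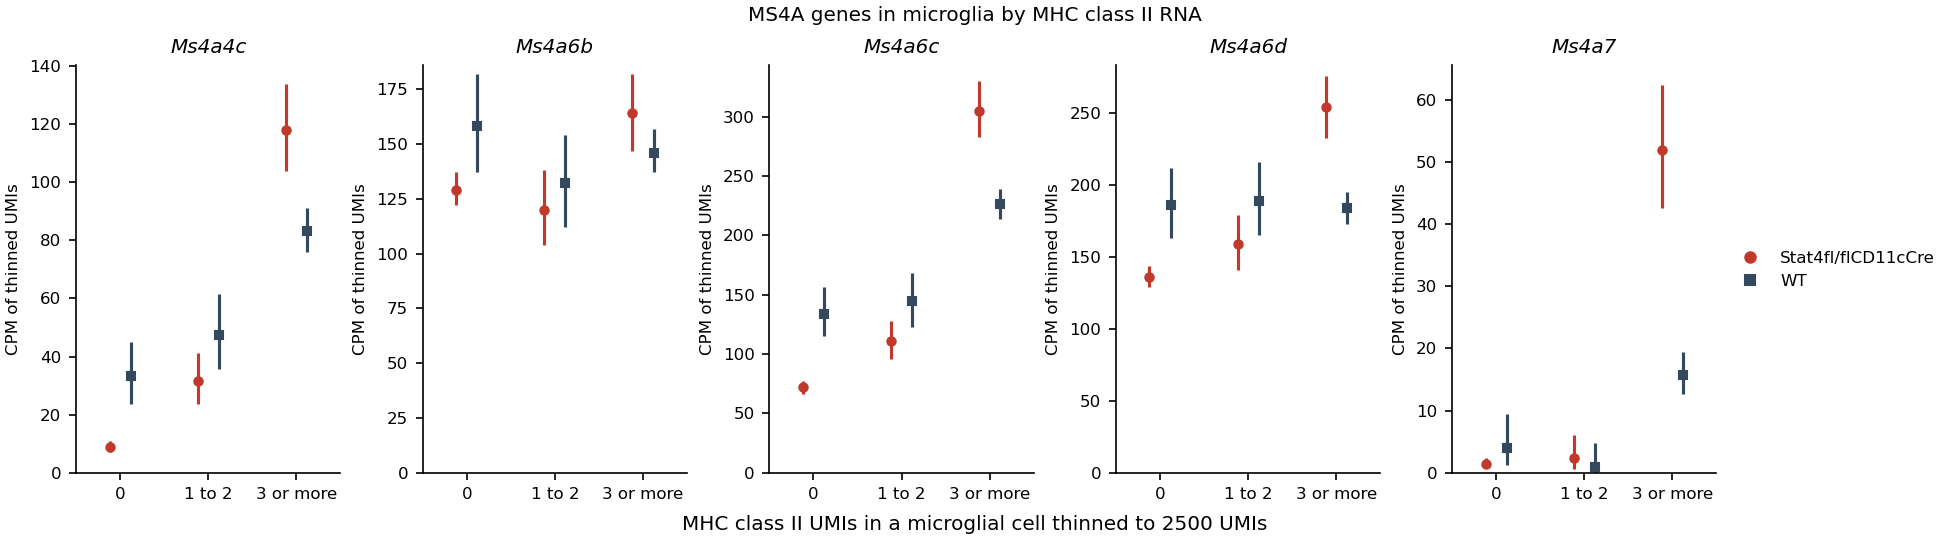
CPM with exact Poisson 95% intervals of 5 MS4A genes (vertical axes from 0) in microglia thinned to 2500 UMIs, by the number of MHC class II UMIs in the cell, for Stat4fl/flCD11cCre (circles, left) and WT (squares, right). Ms4a4c is lower in Stat4fl/flCD11cCre at 0 MHC class II UMIs (8.85 and 33.2 CPM) and higher at 3 or more (118 and 83.2 CPM), and Ms4a7 is nearly confined to the highest bin.

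In mature neutrophils 3 of 4 members measured were lower by 1.5-fold or more in Stat4fl/flCD11cCre, beside 13.1% of genes, and 0 were higher, beside 3.64%. Ms4a4c was at 22.5 CPM (16.3 to 30.4) in Stat4fl/flCD11cCre and 87.9 CPM (70.3 to 109) in WT, from 17 and 25 cells with a UMI. Ms4a6b was at 33.5 and 73.6 CPM and Ms4a6c at 55 and 123 CPM, while Ms4a6d was within the fold at 86.5 and 126 CPM. In these cells the classical monocyte markers, all 6 found, summed to 1210 CPM in Stat4fl/flCD11cCre and 1940 CPM in WT, and their part in the result was not tested. With cells typed by clusters in place of gates the log2 ratio of Ms4a4c there was -0.50, against -1.96. That of Ms4a6b was -0.51, and Ms4a6c had the opposite sign, so all 3 were then within 1.5-fold.

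Other members of the family and known partners were read alongside. Of the 12 listed relatives 11 are among the genes counted. Ms4a8a, a further family gene on chromosome 19, was monocyte-centred too, at 87.9 CPM in classical monocytes in Stat4fl/flCD11cCre and 95.5 CPM in WT, and at 5.02 and 8.04 CPM in microglia (log2 -0.68, -0.98 to -0.38). Tmem176a and Tmem176b, distant relatives that encode ion channels of antigen-presenting cells, went the other way in microglia. They stood at 299 and 429 CPM in Stat4fl/flCD11cCre, against 183 and 262 CPM in WT, a log2 ratio of 0.71 for both. Trem2 was likewise higher in microglia, at 1830 CPM in Stat4fl/flCD11cCre and 1270 CPM in WT (log2 0.53, 0.51 to 0.55), within 1.5-fold. Cd40, which is reported as a partner of MS4A1 in human B cells, was lower in microglia at 7.36 and 21.2 CPM (log2 -1.53, -1.74 to -1.31). Tnfrsf18 encodes GITR, the T cell receptor that mouse MS4A4B associates with, and stood at 269 CPM in T cells in Stat4fl/flCD11cCre and 232 CPM in WT. Cdkn3, the phosphatase that human MS4A3 binds, stood at 55.2 and 54.3 CPM in the neutrophil-lineage intermediates. Of the 4 listed partners measured in microglia, 3 (Cd40, Cdkn3 and Tnfrsf18) were lower by 1.5-fold or more, beside 10.5% of all genes there, and 0 higher, beside 6.95%. Tnfrsf18 was low there, at 1.47 CPM in Stat4fl/flCD11cCre and 3.26 CPM in WT, and Cdkn3 at 5.07 and 9.92 CPM. The part of stray RNA in these values was not tested. Cdkn3 went the other way in classical monocytes, at 28.2 and 13.9 CPM (log2 1.02, 0.76 to 1.29), and in NK cells (1.08, 0.25 to 1.97). Cd40 was lower in classical monocytes too, at 45.1 and 79.6 CPM (log2 -0.82, -0.96 to -0.67). There 1 of 4 listed partners was lower, beside 5.59% of genes, and 1 higher, beside 3.84%. In T cells 1 of 4, Cd40, was lower, beside 3.41% of genes, and 0 higher, beside 2.34%.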

How the data were processed

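Each deposited matrix gives UMI counts that were not normalized, for every gene in every barcode. Per the file headers it was written by Cell Ranger 7.0.0. Also named, in the submitters' processing notes, are mm10, bcl2fastq, STAR, Seurat and R 4.3.0. Annotation release, counting of intronic reads and any earlier doublet removal: not given in the sources used here. Antibody tag counts in the same matrices were not used. Total gene UMIs per library were 120221740 in Stat4fl/flCD11cCre and 122975017 in WT.

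Members, marker lists, gene lists and settings were chosen with earlier results of these data known. A barcode took the type whose list of 6 markers had most markers with a UMI, if 3 or more were found and 2 or more in excess of the best list outside its stage group. Cells within 2 markers of each other in a group are its intermediates. T cells were split by Cd4, Foxp3, Cd8a, Cd8b1 and Trdc UMIs. UMIs were summed per library and type and given as CPM with exact Poisson intervals, ratios with exact conditional binomial intervals for 10 or more UMIs, and shares after thinning to 2500 UMIs with exact Clopper-Pearson intervals, all at the 95% level and for counting error only. Called means 1.5-fold or more, among genes with 50 or more UMIs in the type. 767 cells in Stat4fl/flCD11cCre (6.23%) and 1297 in WT (9.75%) were too shallow to be thinned. Doublets stayed in. As an alternative, the top 10% by Scrublet score (scanpy 1.11.5), 1230 and 1330 cells, were left out. The steps from monocyte to macrophage, the microglia without monocyte or macrophage markers and the bins with doublets removed were chosen after seeing the data. Named genes are the members, those of 4 lists and, for each member reaching 20 CPM in a type, the 3 genes of highest correlation. Only some genes of the lists are named, and 1 list is not reported here. Python 3.11.15, numpy 2.4.6, scipy 1.17.1 and pandas 2.3.3 were used, and the ratio step was tested on simulated data.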

Additional observations from a re-analysis of the deposited data

How the results depend on the processing

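No paired analysis was possible because the labels give no replicate numbers and there is 1 library per genotype. Of the members in microglia, 4 lower and 0 higher as reported, 1 was higher with a gate lead of 1 marker and 1 with clusters in place of gates. Of the pairs of member and type, 8 were lower and 1 higher as reported. With a gate lead of 1 marker 13 were lower and 3 higher. The number higher was 2 with clusters, 2 with median-ratio scaling and 0 with thinned cells. The number lower under these last alternatives, and the share of all genes past the fold under any alternative, are not given here. With clusters Ms4a4c, Ms4a6b and Ms4a6c in mature neutrophils, lower as reported, were within 1.5-fold. The cause of these shifts was not tested. Single log2 ratios changed sign for Ms4a7 in the monocyte-macrophage intermediates (-0.33 with a gate lead of 1), for Ms4a6b in classical monocytes (-0.00) and Ms4a6c in mature neutrophils (0.09) with clusters, and with thinned cells for Ms4a7 in inflammatory macrophages (-0.01), Ms4a4c in the intermediates (0.03) and Ms4a6c in unresolved T cells (-0.05). In microglia the log2 ratio of Ms4a4c ran between -0.63 with clusters and -1.45 without monocyte or macrophage markers, and was below 0 under every alternative run. With clusters the leading type was T cells for Ms4a6b, nonclassical monocytes for Ms4a6c and classical monocytes for Ms4a3 and Ms4a7, with no macrophage type found. Ms4a3 led in mature neutrophils with a gate lead of 1, and Ms4a4a in classical monocytes after thinning. Of the 3 genes most like each member, all 3 stayed for Ms4a3, 1 for Ms4a4a and Ms4a4b and 2 for the rest with a pseudocount of 1. Members under 50 UMIs in a type are too shallow for a 1.5-fold difference to be read.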
